A study of Homo sapiens with 4 samples.

Results

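MondoA, encoded by MLXIP, its DNA-binding partner MLX, the related sensor ChREBP, encoded by MLXIPL, and 6 genes grouped with them as glucose-responsive targets were followed in Caki-1 cells after knockdown of TFE3. The 9 genes were chosen by symbol, and all 9 have a row among the 61533 gene identifiers of the deposited count table. Caki-1 is an established human renal cell carcinoma line. The shTFE3 group carried a lentiviral short hairpin RNA against TFE3 (genotype label TFE3-KD) and the shControl group a lentivirus with a control sequence (genotype label WT), with 2 libraries in each. All cells grew in McCoy's 5A medium with 10% fetal bovine serum, were replated 24 hours after infection, and were kept in 1 µg/ml puromycin for 3 days before RNA was taken, and the labels name no removal of glucose. The labels give neither the number of hairpins nor whether replicates came from separate infections, so p-values here measure the spread between these libraries, which may be technical.

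MondoA and ChREBP are basic helix-loop-helix leucine zipper factors that dimerise with MLX. When glucose 6-phosphate accumulates, the dimer enters the nucleus and binds carbohydrate response elements, which are pairs of E-box-like sites set a fixed short distance apart. TXNIP and ARRDC4 are the best known MondoA targets. Both encode alpha-arrestins, adaptor proteins that draw ubiquitin ligases to membrane cargo, and both are known to lower glucose uptake. ChREBP is the prominent form in liver and adipose tissue, and MondoA in muscle and many tumour cells. TFE3, a factor of the MiT/TFE family, binds the same E-box core.

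Stretches upstream of the RefSeq starts are shown for TXNIP and ARRDC4, the targets named above, both of which were lower after knockdown. Windows from 250 bases before to 50 bases after a start (RefSeq, GRCh38.p14) were searched for 8 of the 9 genes, 12 windows in all. KLF10 was left out of this search, so the motif counts among these genes do not cover it. Capitals mark CACGTG, the E-box read by both factor families, and CACGAG, the variant found in TXNIP. Both stretches run 5′ to 3′ along the strand of the gene, from 250 to 51 bases before the start, TXNIP on the minus strand at chr1:145996630-145996829 and ARRDC4 on the plus strand at chr15:97960453-97960652.
TXNIP: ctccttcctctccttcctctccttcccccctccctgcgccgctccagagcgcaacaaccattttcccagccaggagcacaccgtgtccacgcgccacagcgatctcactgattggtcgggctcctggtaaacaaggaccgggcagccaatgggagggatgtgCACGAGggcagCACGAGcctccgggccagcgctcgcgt
ARRDC4: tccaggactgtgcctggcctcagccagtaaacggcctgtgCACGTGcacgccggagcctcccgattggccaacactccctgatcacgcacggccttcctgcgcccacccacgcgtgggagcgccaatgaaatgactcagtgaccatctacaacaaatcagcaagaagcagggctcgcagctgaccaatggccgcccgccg

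The TXNIP stretch holds 2 copies of CACGAG with 5 bases between them, from 88 to 72 bases before the start. The arrangement CACGNGNNNNNCACGNG, searched on both strands, was written down with the TXNIP stretch in view. It occurs in 20 of 35116 windows, or 0.057%, and in 0.142% of the first windows of tested genes. Among the 8 genes searched it occurs in TXNIP. CACGTG, which reads the same on both strands, occurs in 7.26% of all windows and 9.99% of the first windows of tested genes. It occurs in windows of 3 of the 8 genes, ARRDC4 (210 bases before the start), KLF11 (182 bases) and MLX (50 bases). The 8 genes had 12 windows, so this count of genes and a share of windows are unlike measures. The KLF11 match (chr2:10043647-10043652) lies inside the GENCODE release 29 gene, which begins at 10042849. It precedes a RefSeq start further into the gene. CACGAG occurs, on either strand, in 6.78% of all windows and 8.4% of the first windows of tested genes. In MLX the E-box overlaps TCACGTG, the form preferred by TFE3 and its relatives. TCACGTG occurs in 3.71% of all windows and 5.88% of the first windows of tested genes. The 30 bases around the E-boxes of MLX (chr17:42567038-42567067, plus strand) and KLF11 (chr2:10043635-10043664, plus strand) are given for comparison with ARRDC4.
MLX: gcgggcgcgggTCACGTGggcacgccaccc
KLF11: ccgcccgcagccCACGTGcggccgctgctg
A match of letters is a description of the sequence and not a shown binding site.

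The libraries held 17742519 and 17631154 counts in shTFE3 and 17316158 and 17270180 in shControl. TFE3 itself had 70.1 and 66.9 CPM (counts scaled to the library total, with TMM factors) in shTFE3, against 131 and 128 CPM in shControl, 52.9% of the control level. Among 11 markers of kidney epithelium and carcinoma, PAX8, KRT8, KRT18, CDH16 and VIM had 328 or more counts in every library, EPCAM had 8 to 21 counts, PAX2 and CA9 had 0 and KRT19 at most 2. Their summed level was 2154 to 2220 CPM in shTFE3 and 2089 to 2143 CPM in shControl. LHX1 and KRT18 among them fell, by 0.80 and 0.28 on the log2 scale (edgeR adjusted p 9.25e-07 and 0.00191), and the part of this in the results below was not tested. Of 12 markers of leukocytes, endothelium, fibroblasts and liver, 7 stayed at or under 3 counts in every library. PDGFRB had 193 to 232 counts, COL1A1 112 to 143, PECAM1 48 to 68 and ALB 2 to 8. CD14 had 10 and 11 counts in shTFE3 and 2 and 2 in shControl. The summed level of the 12 was 23.2 to 24.1 CPM in shTFE3 and 22.9 to 23.4 CPM in shControl.

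After knockdown of TFE3, 4 of the 6 response genes were lower, while MLXIP and MLX did not pass and MLXIPL was hardly counted. ARRDC4 fell to 72.3%, KLF10 to 75.3%, TXNIP to 80.2% and ARRDC3 to 87.0% of the control level. Of the 9 genes, 8 passed the filter on low counts and 4 of these fell, while 0 rose (edgeR, quasi-likelihood test, p adjusted by Benjamini-Hochberg and called under 0.05). At an unadjusted p under 0.05 0 of the 8 rose as well, where 2599 of 15950 tested genes were higher. By DESeq2 and by limma-voom 0 rose too, where 5.5% and 10.2% of all genes were called higher by the 2 tools. With 8 genes, a count of 0 beside such shares says little. Of all 15950 tested genes 12.9% were called lower and 10.3% higher, 2059 and 1650 genes, and with library totals as the only scaling these were 1680 and 2119. The median log2 fold change was -0.15 over the 8 genes and 0.0015 over all tested genes. The 8 genes were chosen with results of these data known, and the share called lower is a description. In bulk RNA, fewer cells of a type and less RNA per cell cannot be told apart. The count of genes that fell was 2 without shTFE3 replicate 1, 1 without shTFE3 replicate 2 and 0 with no filter on low counts, where 5.62%, 4.08% and 0.876% of all genes were called lower.

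**Figure D1:**
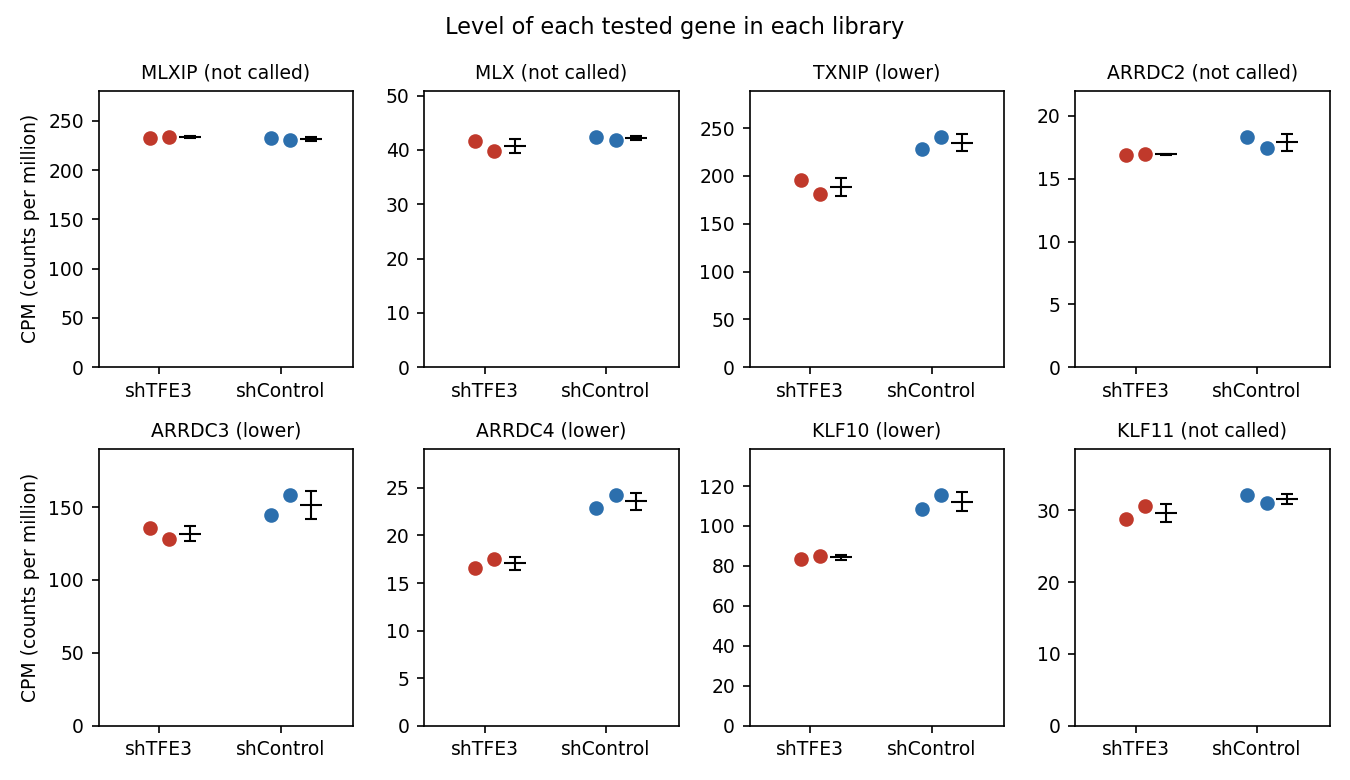
CPM of the 8 tested genes in each library, with shTFE3 in red on the left and shControl in blue on the right of each panel; horizontal bars give the mean and whiskers the SD of the 2 libraries, and every axis starts at 0. TXNIP, ARRDC3, ARRDC4 and KLF10 lie lower in both shTFE3 libraries, and MLXIP lies between 230 and 234 CPM in all 4.

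MLXIP (ENSG00000175727, chromosome 12, 122078722 to 122147347, plus strand) encodes MondoA. It had 4184 and 4161 counts in shTFE3, against 3969 and 3918 in shControl. After scaling these were 233 and 234 CPM in shTFE3 and 233 and 230 CPM in shControl, and the gap between the nearest libraries of the groups was 0.147 CPM. The log2 fold change was 0.013, with a 95% interval from -0.10 to 0.13 (edgeR adjusted p 0.905).

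MLX (ENSG00000108788, chromosome 17, 42567068 to 42573239, plus strand) encodes the shared partner. It had 749 and 708 counts in shTFE3 and 724 and 714 in shControl, which gave 41.7 and 39.8 CPM in shTFE3 and 42.4 and 41.9 CPM in shControl. The knockdown libraries lay slightly below both controls, by less than the gap between the 2 knockdown libraries. The log2 fold change was -0.050, with a 95% interval from -0.20 to 0.10 (edgeR adjusted p 0.69). PSMC3IP on the opposite strand shares 770 exon bases with MLX, 18.1% of its exon length, and the strand setting of the counting is not given in the sources used here, so the MLX count may hold reads of PSMC3IP.

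MLXIPL (ENSG00000009950, chromosome 7, 73593194 to 73624543, minus strand), the gene of ChREBP, had 0 and 2 counts in shTFE3 and 1 and 3 counts in shControl. No library exceeded 3 counts, which correspond to 0.167 to 0.176 CPM, so a difference was not detectable at this depth and no test was made.

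The response genes of the alpha-arrestin family are TXNIP, ARRDC2, ARRDC3 and ARRDC4. TXNIP (ENSG00000265972, chromosome 1, 145992435 to 145996600, minus strand) encodes a thioredoxin-binding arrestin that promotes removal of the glucose transporter GLUT1 from the cell surface. It had 3507 and 3227 counts in shTFE3, against 3898 and 4106 in shControl, or 195 and 181 CPM in shTFE3 against 229 and 241 CPM in shControl. Both knockdown libraries were below both controls, and the gap of 33.4 CPM between the nearest libraries exceeded the spread within either group. TXNIP fell by 0.32 on the log2 scale (SE 0.058, 95% interval -0.44 to -0.20, edgeR adjusted p 0.000203), and 13.8% of tested genes had a lower log2 fold change. Without shTFE3 replicate 2 the log2 fold change was -0.27 (edgeR adjusted p 0.0638), and without the low-count filter the adjusted p was 0.0901.

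ARRDC4 (ENSG00000140450, chromosome 15, 97960698 to 97973838, plus strand) is the closest companion of TXNIP in the glucose response. It had 298 and 312 counts in shTFE3, against 391 and 413 in shControl. These corresponded to 16.6 and 17.5 CPM in shTFE3 and 22.9 and 24.2 CPM in shControl, with no overlap of the groups. ARRDC4 had the lowest log2 fold change of the 8 genes, at -0.47 (SE 0.095, 95% interval -0.66 to -0.27, edgeR adjusted p 0.000643), and 8.03% of tested genes were lower. The adjusted p was 0.06 without shTFE3 replicate 1, 0.0516 without shTFE3 replicate 2 and 0.0729 with no filter on low counts, at log2 fold changes of -0.43, -0.51 and -0.48.

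ARRDC3 (ENSG00000113369, chromosome 5, 91368724 to 91383359, minus strand) encodes an arrestin that acts on beta-adrenergic receptors and integrin beta 4. It had 2435 and 2277 counts in shTFE3, against 2466 and 2695 in shControl, or 136 and 128 CPM in shTFE3 and 145 and 158 CPM in shControl. The groups did not overlap, but shTFE3 replicate 1 and shControl replicate 1 lay 9.07 CPM apart, less than the 13.6 CPM between the controls. ARRDC3 fell by 0.20 on the log2 scale (SE 0.061, 95% interval -0.33 to -0.07, edgeR adjusted p 0.019). Of the genes that fell, this call changed with the most settings, 6 of 12. The adjusted p was 0.0554 by DESeq2, 0.057 with library totals as the scaling, 0.228 with no filter, 0.112 and 0.241 without shTFE3 replicates 1 and 2, and 0.305 without shControl replicate 2, where the log2 fold change was -0.14.

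ARRDC2 (ENSG00000105643, chromosome 19, 18001132 to 18014102, plus strand), another alpha-arrestin, had 304 and 302 counts in shTFE3 and 313 and 297 in shControl. Its level was 16.9 and 17.0 CPM in shTFE3 and 18.4 and 17.4 CPM in shControl, a difference of the same order as the gap between the controls. The log2 fold change was -0.08, with a 95% interval from -0.28 to 0.13 (edgeR adjusted p 0.629). A transcript on the opposite strand, AC020904.3, shares 9.5% of the exon bases of ARRDC2, and ARRDC3-AS1 shares 2.9% of those of ARRDC3.

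KLF10 and KLF11 encode related zinc-finger repressors of the Krüppel-like family, also known as TGF-beta-inducible early genes. KLF10 (ENSG00000155090, chromosome 8, 102648779 to 102655902, minus strand) had 1501 and 1515 counts in shTFE3, against 1854 and 1967 in shControl. Its level was 83.5 and 85.2 CPM in shTFE3 against 109 and 115 CPM in shControl, well apart from the spread within either group. KLF10 fell by 0.41 on the log2 scale (SE 0.062, 95% interval -0.54 to -0.28, edgeR adjusted p 2.14e-05) and kept its call in 11 of 12 alternative settings, the exception being no filter on low counts (adjusted p 0.0557).

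KLF11 (ENSG00000172059, chromosome 2, 10042849 to 10054836, plus strand) had 517 and 544 counts in shTFE3 and 548 and 529 in shControl. Its level was 28.8 and 30.6 CPM in shTFE3 and 32.1 and 31.1 CPM in shControl, where shTFE3 replicate 2 lay nearer to the controls than to its own replicate. The log2 fold change was -0.09, with a 95% interval from -0.26 to 0.08 (edgeR adjusted p 0.479). An antisense transcript, AC104794.4, shares 9.1% of its exon bases. All 8 tested genes had no overlap of the groups in CPM, MLXIP included, as had 60.3% of all tested genes, so the absence of overlap says little with 2 libraries in a group.

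**Figure D2:**
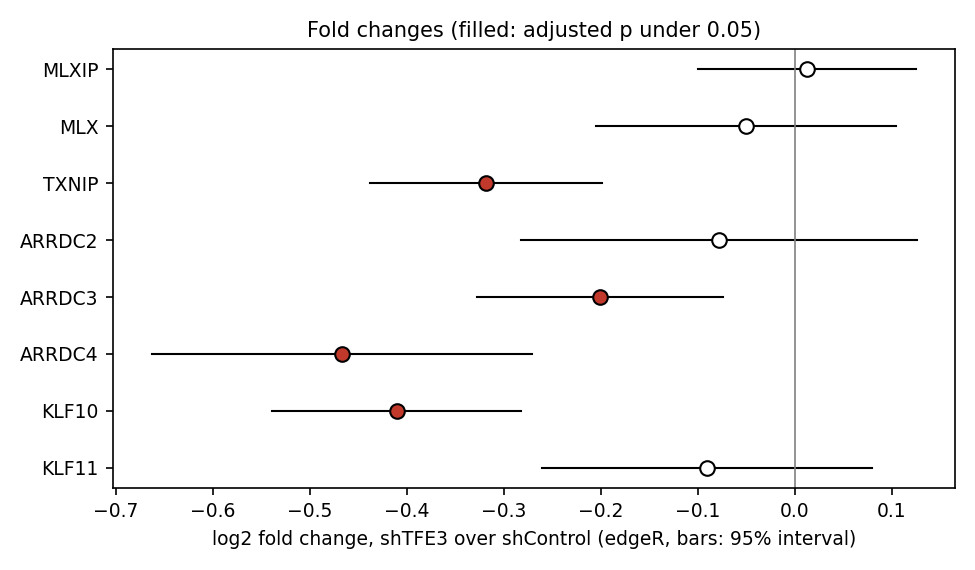
Log2 fold change of shTFE3 over shControl for the 8 tested genes (edgeR; points are estimates, lines 95% intervals, filled points have an adjusted p under 0.05). The intervals of ARRDC4, KLF10, TXNIP and ARRDC3 lie below 0, and those of MLXIP, MLX, ARRDC2 and KLF11 include it.

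Ratios of counts within a library do not depend on how libraries are scaled to each other. TXNIP counts per MLXIP count were 0.838 and 0.775 in shTFE3 and 0.982 and 1.05 in shControl, so the target was lower relative to the gene of its sensor in both knockdown libraries. ARRDC4 counts per ARRDC2 count were 0.98 and 1.03 in shTFE3 and 1.25 and 1.39 in shControl. KLF10 counts per KLF11 count were 2.90 and 2.79 in shTFE3 against 3.38 and 3.72 in shControl. TXNIP counts per ARRDC4 count were 11.8 and 10.3 in shTFE3 and 9.97 and 9.94 in shControl, with shTFE3 replicate 2 closer to the controls than to its own replicate. For MLXIP counts per MLX count, where neither gene passed, the ratios were 5.59 and 5.88 in shTFE3 and 5.48 and 5.49 in shControl. The groups did not overlap there either, so a lack of overlap in such a ratio says little. No test was made of these ratios, and whether the fall of one gene differs from the value of another was therefore not tested.

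**Figure D3:**
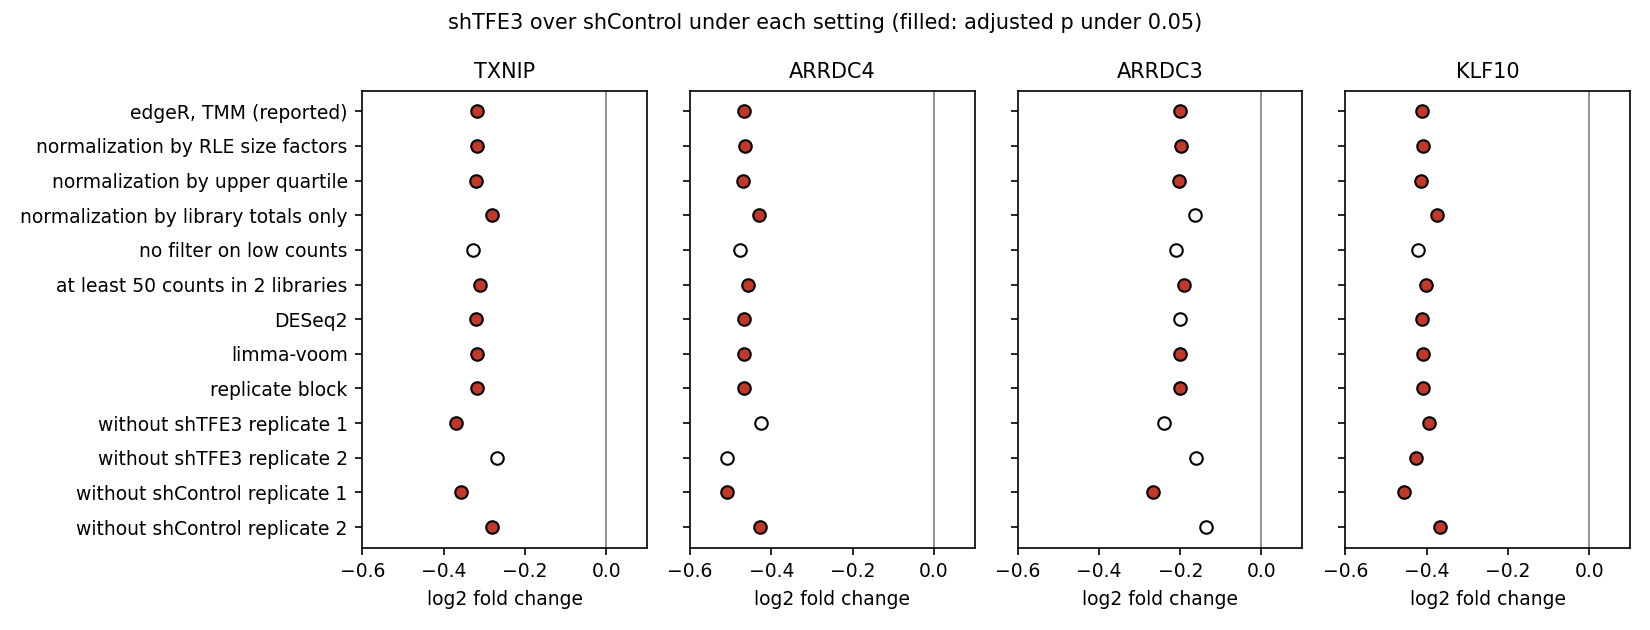
Log2 fold change (x axis) of the 4 genes that fell, shTFE3 over shControl, as reported and under 12 alternative settings (y axis), with filled points where the adjusted p was under 0.05. All estimates are negative; KLF10 keeps its call in 11 settings, TXNIP in 10, ARRDC4 in 9 and ARRDC3 in 6.

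Levels were compared between genes per kilobase of merged exons in GENCODE release 29, as CPM per kb. TXNIP was highest, at 51.9 ± 2.69 in shTFE3 and 64.8 ± 2.44 in shControl (SD, n = 2). ARRDC3 followed with 26.7 ± 1.08 in shTFE3 and 30.7 ± 1.95 in shControl, and KLF10 with 21.1 ± 0.29 in shTFE3 and 28.0 ± 1.20 in shControl. In shControl ARRDC3 and KLF10 lay 29.3 to 32.1 and 27.2 to 28.8, a gap smaller than the spread of ARRDC3.

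MLXIP, with 16.8 ± 0.053 CPM per kb in shTFE3 and 16.6 ± 0.14 in shControl, stood above its partner MLX, with 9.57 ± 0.31 in shTFE3 and 9.90 ± 0.088 in shControl. KLF11 had 6.47 ± 0.28 in shTFE3 and 6.88 ± 0.17 in shControl. ARRDC4 had 4.19 ± 0.17 in shTFE3 and 5.79 ± 0.23 in shControl, and ARRDC2 3.65 ± 0.0087 in shTFE3 and 3.86 ± 0.14 in shControl. Within each group the other neighbours in this order lay apart by more than their SDs.

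The order depended on the length used. Per kilobase of the longest coding transcript, ARRDC2 (6.70 in shTFE3, 7.08 in shControl) stood above ARRDC4 (4.19 in shTFE3, 5.79 in shControl). In shTFE3 MLXIP (27.7) then stood above KLF10 (23.1), while in shControl KLF10 (30.6) stood above MLXIP (27.4).

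**Figure D4:**
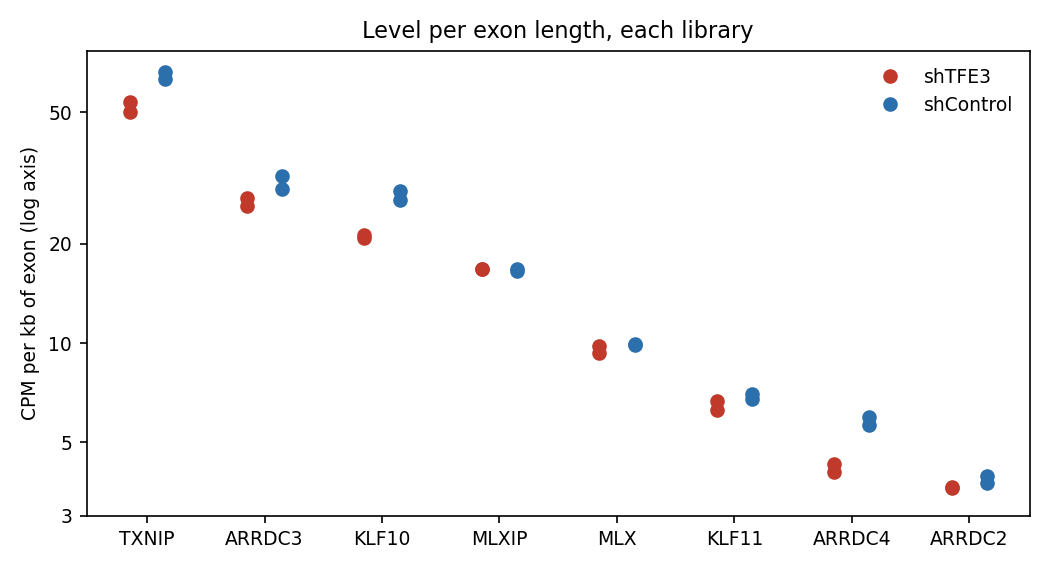
CPM per kb of merged exons (log axis) in each library for the 8 tested genes, ordered by the shControl mean, with shTFE3 in red to the left of shControl in blue. TXNIP is highest in both groups, and ARRDC2 is lowest.

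Genes averaging 100 counts or more were ranked by the distance of their centred log2 CPM over the 4 libraries from that of TXNIP or ARRDC4. Nearest to TXNIP among 10913 genes were CLIP4 (distance 0.0252), AC093297.2 (0.0266), MSMO1 (0.0271), a sterol synthesis enzyme, ZDHHC21 (0.0282) and CRMP1 (0.0313). Nearest to ARRDC4 were CYRIB (0.0362), CNTNAP1 (0.0391), POGLUT2 (0.0392), PLS1 (0.0398) and TRIM47 (0.0404). Within a distance of 0.1 lay 292 genes for TXNIP and 112 for ARRDC4. Such neighbours were not counted for other genes, so how distinctive either profile was over 4 libraries was not tested.

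The genes around the sensor were read in 8 further lists, and their median log2 fold changes ran from -0.17 to 0.068, against 0.0015 for all tested genes. Counts in these lists stand against 12.9% lower and 10.3% higher among all tested genes, and against 0.876% and 0.325% where no low-count filter was used. By DESeq2 the shares were 8.82% lower and 5.5% higher. With each library left out in turn, fewer of all genes were called in either direction, so a smaller count there is not particular to these lists. Of 18 tested genes of glucose entry and glucose 6-phosphate metabolism, the supply that MondoA reads, 6 fell and 2 rose. Hexokinase HK2 rose by 0.84 on the log2 scale (63.7 CPM in shTFE3, 35.6 CPM in shControl) and the phosphoglucomutase PGM1 by 0.63. The glucose transporters SLC2A3 and SLC2A1, a known client of TXNIP, fell by 1.00 and 0.41 (edgeR adjusted p 1.32e-05 and 0.000205). The fall of SLC2A1 came to 65.2 CPM in shTFE3 against 86.4 CPM in shControl. The count of genes that fell was 2, 3, 4 and 3 without shTFE3 replicate 1, shTFE3 replicate 2, shControl replicate 1 and shControl replicate 2, where 5.62%, 4.08%, 9.08% and 8.99% of all genes were called lower. It was 3 with library totals as the only scaling (10.5% of all genes) and 0 with no low-count filter.

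Of 12 tested lipogenic and sugar-metabolism genes known as ChREBP targets, 2 fell and 1 rose. The elongase ELOVL6 fell by 0.44 and the lipase gene PNPLA3 by 0.57, while the fatty acid synthase FASN rose by 0.26 (edgeR adjusted p 0.00362, 0.0273 and 0.00082). FASN did not pass without shTFE3 replicate 1, shTFE3 replicate 2 or shControl replicate 2, and the genes that fell numbered 1 without shTFE3 replicate 1 or shControl replicate 1 and 0 without shTFE3 replicate 2. Neither ELOVL6 nor PNPLA3 passed by DESeq2, 0 genes were called in either direction with no low-count filter, and 2 rose with library totals as the only scaling. In the MYC-MAX network, the wider family of factors to which MLX is linked, MYC (0.18) and MXD1 (0.36) of 8 tested genes rose (edgeR adjusted p 0.0278 and 0.0395) and 0 fell. Falls also numbered 0 at an unadjusted p under 0.05 (2917 of 15950 tested genes were lower), by DESeq2 (8.82% of all genes) and by limma-voom (12.9%). Neither rise passed with any 1 of the 4 libraries left out, by DESeq2 or with no low-count filter.

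TXNIP is named for its binding to thioredoxin. Of 14 tested genes of the thioredoxin system 4 fell and 1 rose. The thioredoxin reductases TXNRD1 and TXNRD3 fell by 0.25 and 0.33 and the mitochondrial peroxiredoxin PRDX3 by 0.18, while the sulfiredoxin SRXN1 rose by 0.39 (edgeR adjusted p 0.000607, 0.0218, 0.0216 and 0.0157). The count that fell was 1 without shTFE3 replicate 1, shTFE3 replicate 2 or shControl replicate 1 and with no low-count filter, and 2 by DESeq2 or with library totals as the only scaling. SRXN1 did not pass by DESeq2, with no low-count filter, or without shTFE3 replicate 1, shTFE3 replicate 2 or shControl replicate 2.

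Of 7 other tested genes with the arrestin fold, VPS26C, a subunit of the retriever complex, fell by 0.60 and VPS26A, of the retromer, by 0.22 (edgeR adjusted p 3.95e-07 and 0.0111), and 0 rose. Rises also numbered 0 at an unadjusted p under 0.05 (2599 of 15950 tested genes were higher), by DESeq2 (5.5% of all genes) and by limma-voom (10.2%). The count that fell was 1 without shTFE3 replicate 1, shTFE3 replicate 2 or shControl replicate 2. The ubiquitin ligases of the NEDD4 family, which bind alpha-arrestins, had 1 of 9 lower, NEDD4 at -0.26, and 2 higher, HECW1 at 0.59 and ITCH at 0.19 (edgeR adjusted p 0.00623, 0.00149 and 0.018). Without shControl replicate 1 the ligases that fell numbered 1, and leaving out each of the other libraries gave 0, while 1 ligase rose without either shControl replicate and 0 without either shTFE3 replicate. By DESeq2 1 ligase rose. With no low-count filter 0 ligases were called in either direction, and 1 arrestin-fold gene fell.

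Beside KLF10 and KLF11, 3 of 15 tested KLF and SP factors fell and 3 rose. KLF7 fell by 0.52 and KLF6 by 0.32, and KLF4 rose by 0.40 (edgeR adjusted p 4e-05, 0.000305 and 0.00542). KLF13, a gene with few reads, rose by 1.17, with 52 and 52 counts in shTFE3 and 24 and 20 in shControl (edgeR adjusted p 0.0011). The rises numbered 1 without shTFE3 replicate 1, 0 without shTFE3 replicate 2 and 2 without either shControl replicate, 1 by DESeq2 and 0 with no low-count filter, where 1 factor fell. Of 16 TGF-beta response genes, the group to which KLF10 is linked by name, 4 rose. The repressor SKI (0.60), the signal transducer SMAD3 (0.30) and the matricellular gene CCN2 (0.37) rose (edgeR adjusted p 1.21e-07, 0.000282 and 0.000674). The rises numbered 2 without shTFE3 replicate 2 and 1 with no low-count filter.

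**Figure D5:**
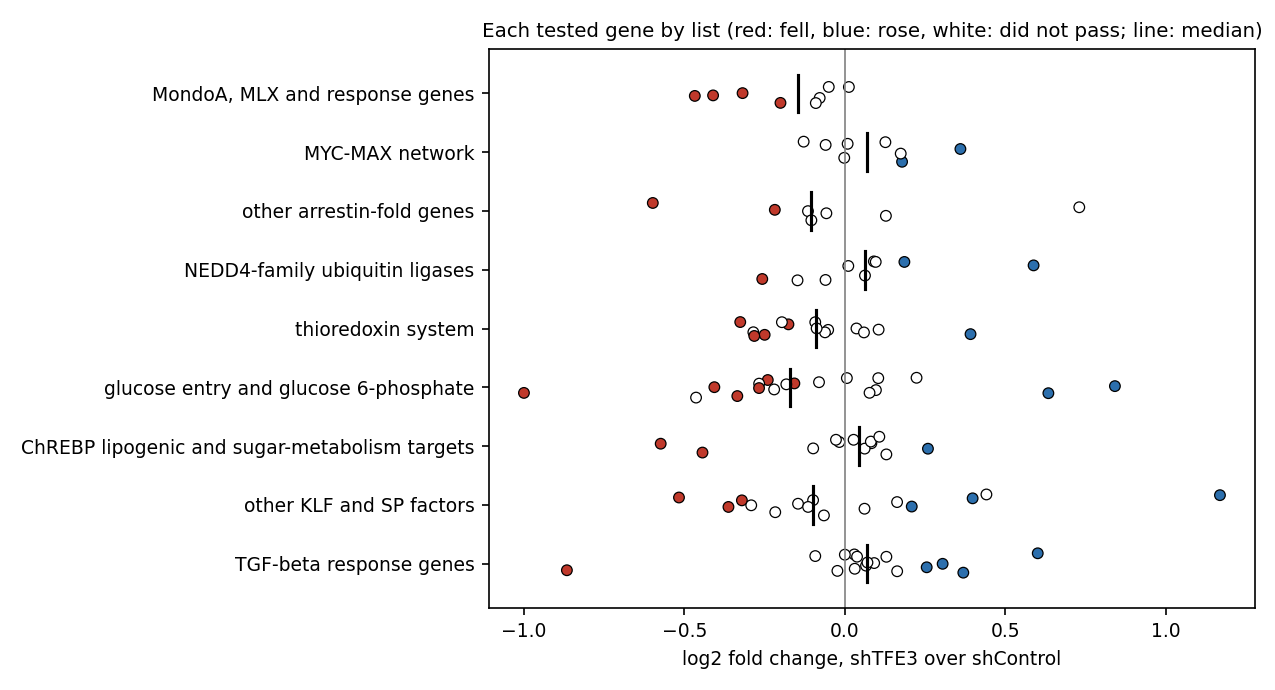
Log2 fold change of shTFE3 over shControl for each tested gene of the 9 studied here (top row, the 8 tested) and of 8 further lists; red points fell, blue points rose and white points did not pass at an adjusted p of 0.05, black lines are medians, and vertical scatter is arbitrary. The top row has 4 red points and a median of -0.15, and the rows below it hold medians from -0.17 to 0.068.

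None of the 9 genes is among the 546 genes of the authors' deposited table of changed genes. Its smallest absolute log2 fold change is 0.585, above the absolute values found here for all 8 tested genes. TFE3 stands in the authors' deposited table with a log2 fold change of -0.92.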

How the data were processed

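Polyadenylated RNA was sequenced as paired 150-base reads. Raw counts of reads for each Ensembl gene were deposited by the authors, without normalization. Trim Galore, STAR, featureCounts and DESeq2 with build hg38 are named per the submitters' processing notes, without versions; the sources used here do not give the annotation, the strand setting or how multi-mapped reads were counted. A second deposited table is the authors' comparison for selected genes, with log2 fold changes, p-values, a test score and mean normalized signal.

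Symbols came from a gene name table and GENCODE release 29, which also gave positions (GRCh38) and merged exon lengths; 79.3% of the authors' 546 lengths lay within 5% of these. The members, lists and tests were chosen with earlier results of these data known. Counts were tested with edgeR 4.0.16 in R 4.3.3: TMM factors, filterByExpr by group, group as the only term, quasi-likelihood test, Benjamini-Hochberg adjustment over 15950 genes at 0.05. The SE was taken as the size of the log2 fold change over the root of the F statistic, and intervals use the total degrees of freedom (2 residual, 22.4 prior). Total counts lay between 17270180 and 17742519 per library; the floor of 3 counts covers counting error only. Replicates of a group differed by more than counting noise (chi-square per degree of freedom 3.30 in shTFE3 and 2.00 in shControl) and were kept as separate libraries. Genes named are all 9 members, TFE3, up to 4 called genes with the smallest p in each list, and the 5 nearest profiles of TXNIP and ARRDC4 (log2 CPM, prior count 2). Not every gene that this rule gave is reported here. Alternatives were 3 other scalings, 2 other filters, DESeq2 1.42.0, limma-voom (limma 3.58.1), a replicate term and each library left out. The procedure was also run on simulated counts drawn with the same dispersion for every gene. The outcome is not reported here and no result above rests on it.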

Additional observations from a re-analysis of the deposited data

How the results depend on the processing

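All 8 tested genes kept their direction under the 12 alternatives. With no filter on low counts, where many genes with hardly any reads enter, 0 members, 384 genes in all and 4 lower and 3 higher genes of the further lists were called; TXNIP (-0.33), ARRDC3 (-0.21), ARRDC4 (-0.48) and KLF10 (-0.42) did not pass. DESeq2 called 1959 genes, with 12 lower and 8 higher in the lists (19 and 15 by edgeR), and ARRDC3 (-0.20) did not pass; nor did it with library totals only (-0.16). With 1 library left out, 1 to 4 members were called, all lower, 1043 to 2514 genes in all, and 8 to 14 lower and 4 to 10 higher list genes. The log2 fold changes then ran from -0.37 to -0.27 for TXNIP, from -0.27 to -0.14 for ARRDC3 and from -0.51 to -0.43 for ARRDC4. Those fits have 3 libraries, and the lone library of a group is assumed to vary like the other group. Apart from the construction of each setting, the causes of these changes were not tested.

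The replicate numbers of the labels gave no pairing: the differences between replicates 1 and 2 correlated at -0.029 between the groups over 15950 genes. With the replicate block 4 members and 3558 genes were called. Library totals as the only scaling moved the median of all tested genes to 0.038. At this depth MLXIPL lay at or under the limit of 3 counts in every library.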
